A study of Mus musculus with 12 samples.

Results

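The 14-3-3 proteins are a family of small adaptor proteins encoded in mice by Ywhae (ENSMUSG00000020849, isoform epsilon), Ywhaz (ENSMUSG00000022285, zeta), Ywhab (ENSMUSG00000018326, beta), Ywhag (ENSMUSG00000051391, gamma), Ywhah (ENSMUSG00000018965, eta) and Ywhaq (ENSMUSG00000076432, theta, also called tau). These 6 genes were chosen by name and identifier, and all 6 were present among the 10481 genes of the count table. Sfn, the gene for the sigma isoform, which is known mainly from epithelia, could not be followed under a name. The counts came from ribosome profiling, in which the mRNA fragments protected by ribosomes are sequenced, so that the number of fragments (footprints) on a gene reflects its ribosome occupancy. Brain and spinal cord were collected at embryonic day 14.5 from the Taiwanese mouse model of spinal muscular atrophy (SMA), a disease of low SMN protein. SMA embryos had the genotype Smn-/-; SMN2tg/0 and healthy controls the genotype Smn+/-; SMN2tg/0, so that both carried the human SMN2 transgene and controls had a single working copy of mouse Smn. There were 3 libraries for each of the 4 groups, 12 in all, described as biological triplicates, and the genotype rested on the labels because the mouse Smn gene could not be followed under a name. RNA abundance was not analyzed here, so more mRNA and more ribosomes per mRNA cannot be told apart, nor can fewer cells of a type and less RNA per cell in whole tissue.

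As background, 14-3-3 proteins work as dimers that grip short motifs around a phosphorylated serine or threonine in their partners. By doing so they hold kinases such as Raf in check, keep transcription factors, deacetylases and cell cycle regulators in the cytoplasm, and protect phosphorylated partners from phosphatases. They are among the most abundant cytosolic proteins of the brain. During brain development 14-3-3 epsilon protects phosphorylated Ndel1, which acts with Lis1 (the product of Pafah1b1) and dynein in neuronal migration.

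In GRCm38.p6 the RefSeq annotation placed Ywhae at chr11:75732887-75765841, Ywhaz at chr15:36770261-36802984, Ywhab at chr2:163995197-164018588, Ywhag at chr5:135908379-135934641, Ywhah at chr5:33018816-33027966 and Ywhaq at chr12:21390329-21417436. All 6 were annotated as protein coding. RefSeq also listed 3 pseudogenes of Ywhaq, and the isoforms resemble each other, so that counts of single members are uncertain where reads with up to 5 alignments were kept. The stretches just before the start sites of Ywhah and Ywhaq are shown because the ratio of these members did not overlap between brain and spinal cord, as described below. Each line gives 250 bases from RefSeq on the strand of the gene, 5′ to 3′, at chr5:33018566-33018815 for Ywhah on the plus strand and chr12:21417437-21417686 for Ywhaq on the minus strand. Capitals mark CCAAT or its reverse ATTGG, and TGACG or its reverse CGTCA.

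Ywhah: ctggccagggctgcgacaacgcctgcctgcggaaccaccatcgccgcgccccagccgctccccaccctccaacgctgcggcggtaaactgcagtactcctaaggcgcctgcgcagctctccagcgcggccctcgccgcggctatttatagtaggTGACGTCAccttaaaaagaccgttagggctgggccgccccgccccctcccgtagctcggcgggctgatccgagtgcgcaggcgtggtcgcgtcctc
Ywhaq: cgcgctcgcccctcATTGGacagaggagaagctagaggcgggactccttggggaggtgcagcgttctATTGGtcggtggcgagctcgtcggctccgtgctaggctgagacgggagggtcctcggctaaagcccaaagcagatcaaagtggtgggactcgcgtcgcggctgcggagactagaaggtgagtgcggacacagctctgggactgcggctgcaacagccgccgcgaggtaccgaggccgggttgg

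The Ywhah window held 1 copy of TGACGTCA, the letters of the full cAMP response element, which reads the same on both strands and contains both matches of the half-site TGACG marked there. The full element was present in 1.55% and the half-site in 17.8% of 32851 windows of the same length. The Ywhaq window held 2 copies of the CCAAT box, present in 33.8% of windows, and none of the half-site. The GC box GGGCGG or its reverse, present in 32.7% of windows, occurred 2 times before each of Ywhae, Ywhag and Ywhah and was not found before Ywhaq. TATAAA or its reverse, present in 12.4% of windows, occurred 1 time, before Ywhah. Windows were at hand for 4 of the 6 genes. These matches describe the letters of the windows and were not tested against the footprint data.

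Library totals ran from 3683842 to 12793955 counts. In brain they were 9117017, 4839144 and 4207100 for control libraries 1 to 3 and 3729097, 5406430 and 3683842 for the SMA libraries. In spinal cord every control library (12793955, 10339264 and 10315064 counts) was deeper than every SMA library (8027322, 5162190 and 6111591 counts). The labeled tissues matched their regional markers, since Hoxc8 and Hoxc10, which mark trunk levels, summed to 107 to 164 CPM (counts scaled to the normalized library total) in spinal cord and at most 0.928 in brain. Lhx2, a transcription factor of the forebrain that is also made by some dorsal spinal neurons, stood at 131 to 185 CPM in brain. In spinal cord it was highest in control spinal cord 1 at 38.3 CPM, against 7.96 to 27.8 CPM in the other libraries of that tissue. Fold changes of members and listed genes that passed with control spinal cord 1 were therefore also computed without it. Apoh, a plasma protein gene of the liver, reached 42.3 CPM in 1 SMA spinal cord library and at most 0.547 CPM in brain. P-values below measure only the spread between libraries.

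The family took 0.283% to 0.487% of all counts in a library. Its share in brain was 0.425% ± 0.0682 for controls and 0.467% ± 0.0334 for SMA embryos, and its share in spinal cord was 0.313% ± 0.0264 for controls and 0.383% ± 0.0516 for SMA embryos (SD, n = 3 each). The libraries of control and SMA overlapped in both tissues, with SMA spinal cord 1 at 0.328% and control spinal cord 2 at 0.333%. Between 1032 and 12379 counts lay behind each value of a member, so that counting error alone was at most 3.11%, below the SD between libraries.

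Levels of different members were compared per kilobase of the deposited gene length, which spans all exons and so includes untranslated stretches. On this scale of normalized CPM per kilobase (FPKM), averaged over the 12 libraries, Ywhae was highest at 505, followed by Ywhaz at 329, Ywhaq at 130, Ywhah at 98.0, Ywhab at 76.9 and Ywhag at 56.4. Ywhae ranked 34 of all 10481 genes and Ywhaz 82, while Ywhaq ranked 416, Ywhah 667, Ywhab 934 and Ywhag 1422. On this scale Ywhae lay above Ywhaz, Ywhaz above Ywhaq, Ywhah above Ywhab and Ywhab above Ywhag in 12 of 12 libraries. Within groups these neighbors did not overlap, except Ywhah and Ywhab in 1 of the 4 groups. Ywhaq and Ywhah were the neighbors whose order was not fixed. Per kilobase, Ywhaq was higher in 6 of 6 brain libraries but in only 4 of 6 spinal cord libraries, where both genotypes overlapped. In SMA spinal cord Ywhaq stood at 115 ± 15.7 FPKM and Ywhah at 109 ± 12.3 FPKM (SD, n = 3 each). The order depended in part on the deposited lengths. By mean CPM, which is not divided by length, Ywhaz (1354) lay above Ywhae (1296) and Ywhag (310) above Ywhab (260).

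The levels of each member are given below as CPM normalized over the 12 libraries. Ywhae, whose product protects phosphorylated Ndel1, stood at 1145, 1580 and 1619 CPM in control brain and at 1597, 1440 and 1703 CPM in SMA brain. In spinal cord it stood at 811, 1046 and 964 CPM in controls and at 982, 1429 and 1238 CPM in SMA embryos. The brain libraries other than control 1 lay above every spinal cord library, and control and SMA overlapped in both tissues.

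Ywhaz encodes the zeta isoform, a widely used partner of Raf kinases and other phosphorylated proteins. It stood at 1136, 1656 and 1652 CPM in control brain and at 1759, 1480 and 1700 CPM in SMA brain. Its spinal cord levels were 939, 1023 and 1042 CPM in controls and 1113, 1409 and 1333 CPM in SMA embryos. Every SMA spinal cord library lay above every control spinal cord library, while the genotypes overlapped in brain.

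Ywhaq encodes the theta isoform, first known from T cells. Its level was 368, 491 and 480 CPM in control brain and 545, 447 and 527 CPM in SMA brain. In spinal cord it was 272, 293 and 316 CPM in controls and 307, 402 and 343 CPM in SMA embryos. Within each genotype every brain library was above every spinal cord library.

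Ywhag encodes the gamma isoform, altered in a developmental epilepsy of children. It stood at 268, 364 and 370 CPM in control brain and at 377, 336 and 393 CPM in SMA brain. Its spinal cord levels were 224, 244 and 249 CPM in controls and 251, 359 and 288 CPM in SMA embryos. The spinal cord genotypes did not overlap, but the highest control and the lowest SMA library differed by little.

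Ywhah encodes the eta isoform. It stood at 306, 365 and 383 CPM in control brain and at 383, 328 and 375 CPM in SMA brain. In spinal cord it stood at 283, 379 and 349 CPM in controls and at 352, 440 and 419 CPM in SMA embryos, so that its highest library was a spinal cord library, which held for no other member.

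Ywhab encodes the beta isoform, a partner of Raf. Its level varied least, by 1.38-fold over the 12 libraries against 1.56-fold to 2.10-fold for the other members. It was 231, 259 and 272 CPM in control brain and 282, 264 and 307 CPM in SMA brain. In spinal cord it was 222, 247 and 239 CPM in controls and 243, 277 and 277 CPM in SMA embryos, with overlap between all pairs of groups except control spinal cord and SMA brain.

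**Figure D1:**
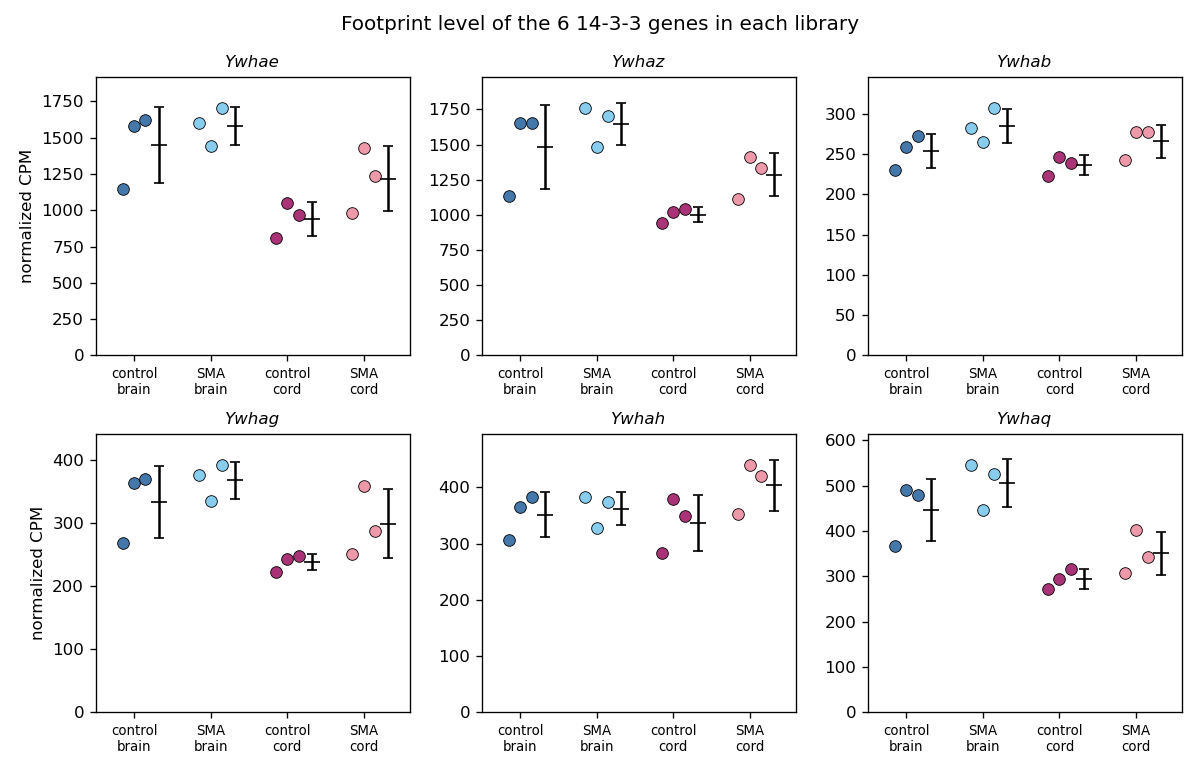
Each panel shows 1 gene of the 14-3-3 family, with normalized CPM on the vertical axis from 0 and the 4 groups on the horizontal axis. Points are the 3 libraries of a group in order of their number, and the bar beside them gives the mean ± SD. Control brain 1 and control spinal cord 1 were the lowest libraries of their tissue in all 6 panels.

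The levels moved together from library to library, and they moved with the library total. The deepest library of each tissue, control brain 1 and control spinal cord 1, had the lowest level of all 6 members in that tissue, which held for 21.7% of all genes in brain and 24.6% in spinal cord. Ywhaz, for example, stood at 1136 CPM in control brain 1 (9117017 counts) and at 1480 CPM or more in the other brain libraries (at most 5406430 counts). In SMA spinal cord, all 6 members were lowest in library 1, the deepest of the 3. Control spinal cord 1, the deepest of all 12 libraries, was also the spinal cord library with the highest Lhx2 level. Across all genes, the log2 fold change of SMA over control followed the counts per base of a gene, with a Spearman correlation of 0.22 in brain and 0.29 in spinal cord (a description over 10481 genes, which are not independent). Each comparison was also run after removing the trend of every library on counts per base (called the density trend below), after which these correlations were 0.0065 and -0.027. The part of the library total in the differences below was not tested beyond these alternatives, and in spinal cord depth and genotype cannot be told apart.

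**Figure D2:**
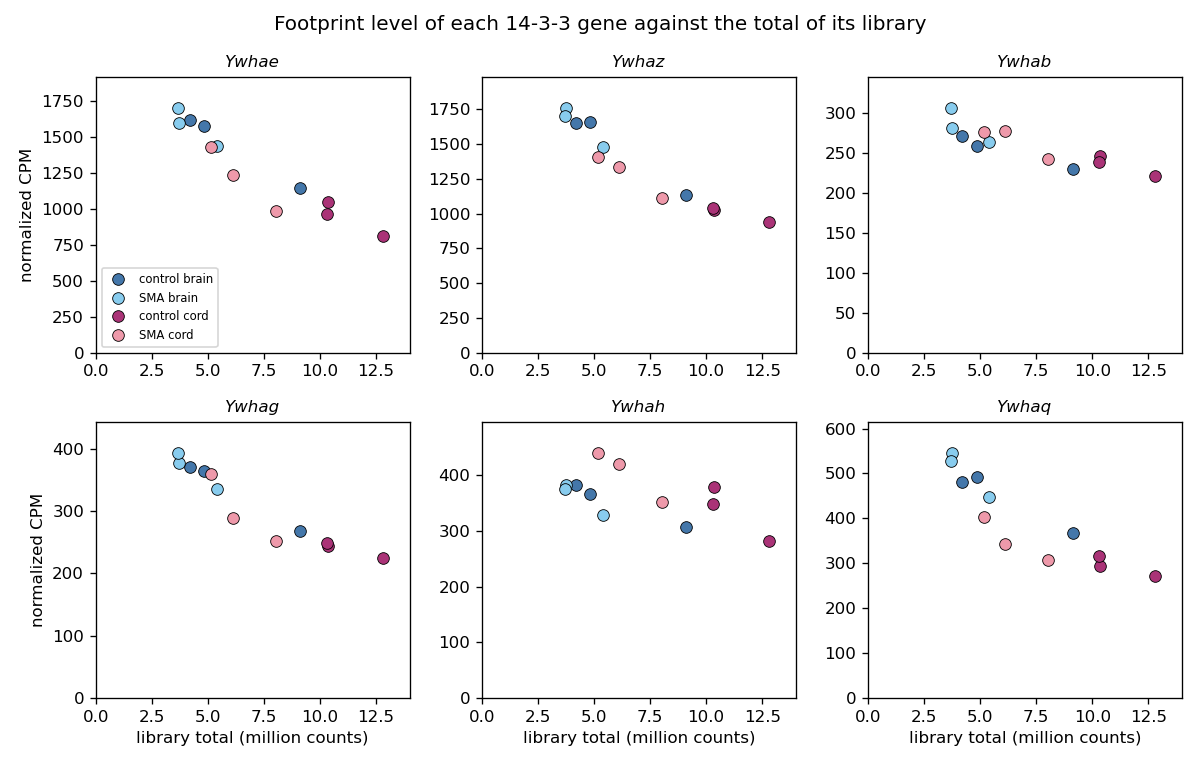
Each panel plots the normalized CPM of 1 gene of the 14-3-3 family on the vertical axis against the library total (3683842 to 12793955 counts) on the horizontal axis, with 1 point for each of the 12 libraries colored by group. Levels tend to be lower in deeper libraries of the same tissue, and in Ywhah the spinal cord libraries sit above brain libraries of like depth.

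SMA and control brain were compared to ask whether low SMN alters ribosome occupancy of the family in the developing brain. No member passed, in either direction, the thresholds that the study used for pathway analysis, a log2 fold change of 0.3 or more in size with an unadjusted p under 0.05, which 3.76% of all genes passed in edgeR's quasi-likelihood test, 1.19% with a higher level. All 6 members had higher mean levels in SMA brain, against 50.4% of all genes with a log2 fold change above 0. The log2 fold changes ran from 0.06 to 0.20, with a median of 0.16 against 0.00 over all genes. The largest was that of Ywhaq at 0.20 (SE 0.12, 95% interval -0.07 to 0.46), and the smallest that of Ywhah at 0.06 (SE 0.11). Ywhab had the smallest unadjusted p in edgeR, 0.0892, at a log2 fold change of 0.18 (SE 0.099). The 2 most abundant members stood at 0.14 (SE 0.13, Ywhae) and 0.17 (SE 0.14, Ywhaz). Ywhag stood at 0.16 (SE 0.13).

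None of the 6 members separated control from SMA brain without overlap, as 11.0% of all genes did. The adjusted p-values of the members in edgeR were 0.902 or higher, and no gene of the table had an adjusted p under 0.05 in this comparison, where 529 genes had an unadjusted p under 0.05 and DESeq2 also called none. The intervals of the 6 members reached from at most -0.03 up to between 0.29 and 0.46, so differences of that size remained possible with these libraries. The values leaned on control brain 1: without it Ywhae stood at -0.01, Ywhaz at -0.00, Ywhag at 0.01, Ywhah at -0.04, Ywhaq at 0.06 and Ywhab at 0.11. With the density trend removed no member passed (3.64% of all genes did), and Ywhae stood at -0.01, Ywhah at -0.00, Ywhaz at 0.04, Ywhaq at 0.11, Ywhag at 0.12 and Ywhab at 0.13.

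The same question was asked of spinal cord. Ywhae and Ywhaz passed the same thresholds with higher levels in SMA spinal cord, 2 of the 6 members, while 4.19% of all genes passed in either direction and 2.05% with a higher level. Ywhaz had a log2 fold change of 0.35 (SE 0.091, 1.27-fold, unadjusted p = 0.00653, adjusted p = 0.684 in edgeR). Ywhae had a log2 fold change of 0.36 (SE 0.15, 1.28-fold, unadjusted p = 0.0444, adjusted p = 0.684 in edgeR). The other 4 members did not pass, with log2 fold changes of 0.31 for Ywhag (SE 0.13, unadjusted p = 0.0523 in edgeR), 0.25 for Ywhah (SE 0.13), 0.24 for Ywhaq (SE 0.11) and 0.16 for Ywhab (SE 0.085). All 6 log2 fold changes were above 0, as were 48.9% of those of all genes, and their median was 0.28 against -0.01 over all genes.

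Ywhaz and Ywhag were the members whose control and SMA spinal cord libraries did not overlap, as was the case for 14.7% of all genes. With 3 libraries against 3, an exact two-sided permutation test cannot give a p under 0.1. No gene of the table had an adjusted p under 0.05 in edgeR, where 733 had an unadjusted p under 0.05. DESeq2 gave 57 such genes, among them Ywhaz (adjusted p = 0.0279), and the adjusted p of Ywhaz over all alternatives ran from 0.0279 to 0.98.

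The spinal cord values depended on single libraries. Without SMA spinal cord 2, the shallowest of the tissue, no member passed, with Ywhaz at 0.27 and Ywhae at 0.22. Without SMA spinal cord 1, in which all 6 members were lower than in the other SMA libraries, 5 passed, all but Ywhab. Without control spinal cord 1, the deepest library and the one of its tissue with the highest Lhx2 level, Ywhaz remained past the thresholds at 0.31 and Ywhae stood at 0.27. The other values without it were 0.27 for Ywhag, 0.19 for Ywhaq, 0.14 for Ywhah and 0.12 for Ywhab. Ywhae also failed the thresholds without control spinal cord 3 and without SMA spinal cord 3, and in both cases Ywhaz was the 1 member that passed. Without control spinal cord 2, 3 members passed (Ywhae, Ywhaz and Ywhah). The count over all genes also moved, from 439 with every library to 280 without SMA spinal cord 2 and 980 without SMA spinal cord 1. It was 231, 478 and 596 without control spinal cord 1, 2 and 3.

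With the density trend removed, no member passed in spinal cord, where 3.13% of all genes did. Ywhag then had the largest log2 fold change at 0.24 (SE 0.11, unadjusted p = 0.0537 in edgeR). Ywhah stood at 0.11, Ywhaz at 0.10, Ywhae and Ywhaq at 0.09 and Ywhab at 0.05. With log2 library total as a covariate over all 12 libraries, an alternative added after the data were seen, the 6 spinal cord values lay between -0.11 and -0.03 and none passed. With the same covariate in the 6 spinal cord libraries alone, all 6 values were negative and Ywhae passed as lower in SMA spinal cord, at -0.36 (SE 0.090, adjusted p = 0.277 in edgeR). In that fit 1578 of all 10481 genes passed, against 439 without the covariate.

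**Figure D3:**
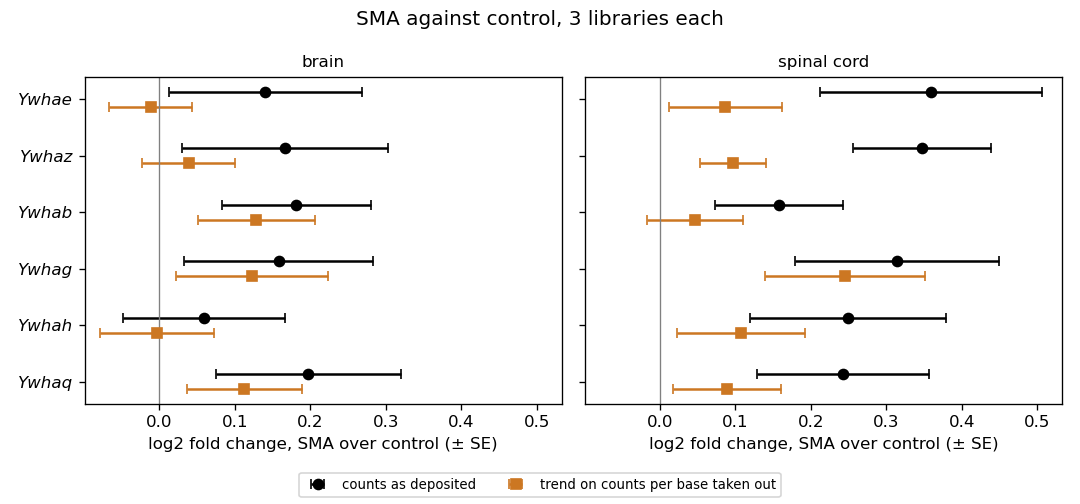
Log2 fold change of SMA over control (± SE) for the 6 genes of the 14-3-3 family in brain and spinal cord, with 3 libraries in each group. Circles show the counts as deposited and squares the fit with the density trend removed. All circles lie above 0, and the squares of Ywhae and Ywhaz lie at -0.01 and 0.04 in brain and at 0.09 and 0.10 in spinal cord.

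Whether the SMA effect on a member differed between spinal cord and brain was tested as an interaction in a fit over the 12 libraries. No member had an unadjusted p under 0.05, which 2.38% of all genes had, and all adjusted p-values in edgeR were 1. The difference, spinal cord minus brain, was 0.24 for Ywhae (SE 0.22), 0.22 for Ywhah (SE 0.18), 0.21 for Ywhaz (SE 0.19), 0.18 for Ywhag (SE 0.20), 0.07 for Ywhaq (SE 0.18) and 0.00 for Ywhab (SE 0.13). Their 95% intervals all included 0, with the widest from -0.23 to 0.72 for Ywhae. Without control brain 1, Ywhaz alone passed, with a difference of 0.37, and without control spinal cord 1 none did, with values between -0.04 and 0.16.

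Brain was compared with spinal cord within each genotype, in a fit over the 12 libraries. In control embryos 4 members were higher in brain at an adjusted p under 0.05 in edgeR, where 41.1% of all genes were called and 21.1% were called as higher in brain. They were Ywhae with a log2 fold change of 0.62 (SE 0.15, 1.54-fold, adjusted p = 0.00743), Ywhaq with 0.60 (SE 0.13, 1.52-fold, adjusted p = 0.00321), Ywhaz with 0.56 (SE 0.14, 1.48-fold, adjusted p = 0.00611) and Ywhag with 0.48 (SE 0.14, 1.40-fold, adjusted p = 0.0172). Ywhab and Ywhah were not called, with log2 fold changes of 0.10 (SE 0.089) and 0.06 (SE 0.13). The 4 called members were also those whose control brain and spinal cord libraries did not overlap, as was the case for 54.0% of all genes.

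In SMA embryos, which shared no library with the control contrast, Ywhaq was the 1 member called, among 40.4% of all genes called and 19.3% called as higher in brain. Its log2 fold change was 0.53 (SE 0.13, 1.44-fold, adjusted p = 0.00677 in edgeR). Ywhae stood at 0.38 (SE 0.15, adjusted p = 0.0693), Ywhaz at 0.36 (SE 0.14, adjusted p = 0.0528) and Ywhag at 0.30 (SE 0.14, adjusted p = 0.11). Ywhab stood at 0.10 (SE 0.090). Ywhah had the opposite sign, at -0.16 (SE 0.13, adjusted p = 0.334). The libraries of Ywhae, Ywhaz and Ywhaq did not overlap between the tissues, against 51.8% of all genes. The interaction given above is also the test of whether the tissue difference depended on genotype, and it did not pass for any member.

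The tissue differences of the members shrank with the density trend removed. In control embryos Ywhaq stood at 0.30 (SE 0.076, adjusted p = 0.00757) and Ywhag at 0.34 (SE 0.11, adjusted p = 0.0321), both called in edgeR, as were 41.7% of all genes. Ywhae stood at 0.15 and Ywhaz at 0.12, neither called. Ywhah was at -0.19 (SE 0.078, adjusted p = 0.0653) and Ywhab at -0.11. In SMA embryos Ywhaq was called as higher in brain at 0.34 (SE 0.077, adjusted p = 0.00385) and Ywhah as higher in spinal cord at -0.32 (SE 0.079, adjusted p = 0.00604), against 41.5% of all genes called. Ywhag was at 0.22, Ywhae at 0.09, Ywhaz at 0.08 and Ywhab at -0.04, none of them called.

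Ywhaq had the tissue difference that held most often. It was called in the control and the SMA contrast with the counts as deposited, with the density trend removed and with each of the 12 libraries left out in turn. Its adjusted p in SMA embryos was 0.031 or lower under every alternative, whereas in control embryos it was not called with log2 library total as a covariate (0.17, adjusted p = 0.204). Without control spinal cord 1, the control difference was 0.55 for Ywhaq (adjusted p = 0.0125), 0.53 for Ywhae (adjusted p = 0.0282) and 0.52 for Ywhaz (adjusted p = 0.0214) in edgeR. Ywhag was then at 0.44 and no longer called (adjusted p = 0.0542), and Ywhah was at -0.05. Ywhag was also not called without control brain 2 (0.41) or control brain 3 (0.40). In SMA embryos 4 members were called without SMA spinal cord 2 (Ywhae, Ywhaz, Ywhag and Ywhaq), 3 without control brain 1 and 2 without SMA brain 2.

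**Figure D4:**
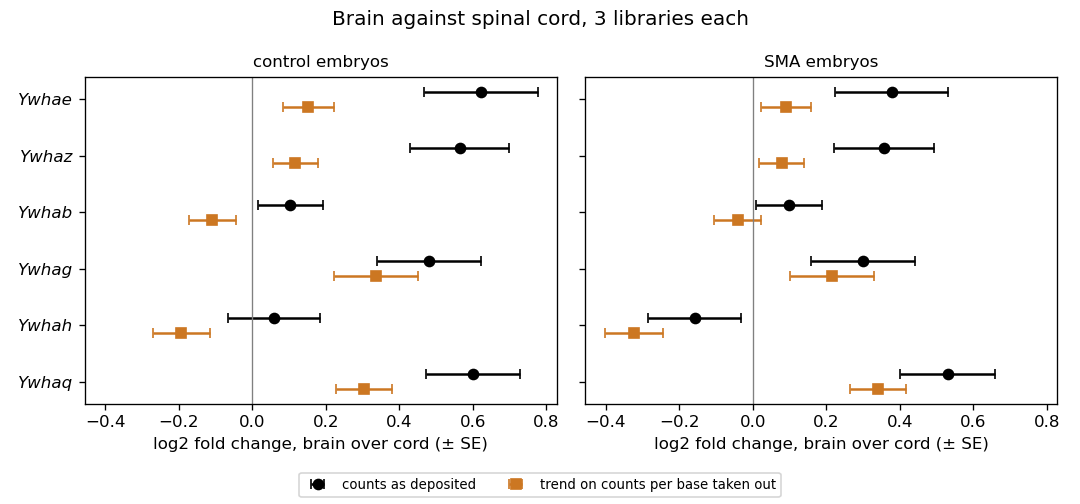
Log2 fold change of brain over spinal cord (± SE) for the 6 genes of the 14-3-3 family in control and in SMA embryos, with 3 libraries in each group. Circles show the counts as deposited and squares the fit with the density trend removed. Ywhaq lies above 0 in both panels with both fits, and the squares of Ywhah lie at -0.19 in control and -0.32 in SMA embryos.

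Ratios between members within a library need no normalization, although they keep any trend that acts differently on genes of different abundance. The ratio of Ywhah to Ywhaq counts was 0.832, 0.744 and 0.798 in control brain and 0.702, 0.734 and 0.711 in SMA brain. In spinal cord it was 1.04, 1.29 and 1.10 in controls and 1.15, 1.09 and 1.22 in SMA embryos. All 6 spinal cord libraries thus lay above all 6 brain libraries, including control brain 1 and SMA spinal cord 1, whose totals were 9117017 and 8027322 counts. The lowest spinal cord ratio was that of control spinal cord 1. The tissues did not overlap in 6 of the 15 pairs of members, as was the case for 33.4% of all pairs among the 10004 genes with a count in every library: Ywhah with Ywhae, Ywhaz, Ywhag and Ywhaq, and Ywhaq with Ywhab and Ywhag. The ratio of Ywhae to Ywhaz stayed between 0.863 and 1.02 in the 12 libraries, and the tissues overlapped. Control and SMA did not overlap in 1 of the 15 pairs in brain (Ywhah and Ywhaq), against 11.1% of all such pairs, and in 2 in spinal cord (Ywhaz with Ywhab and with Ywhaq), against 13.9%. The ratios are descriptions and were not tested.

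**Figure D5:**
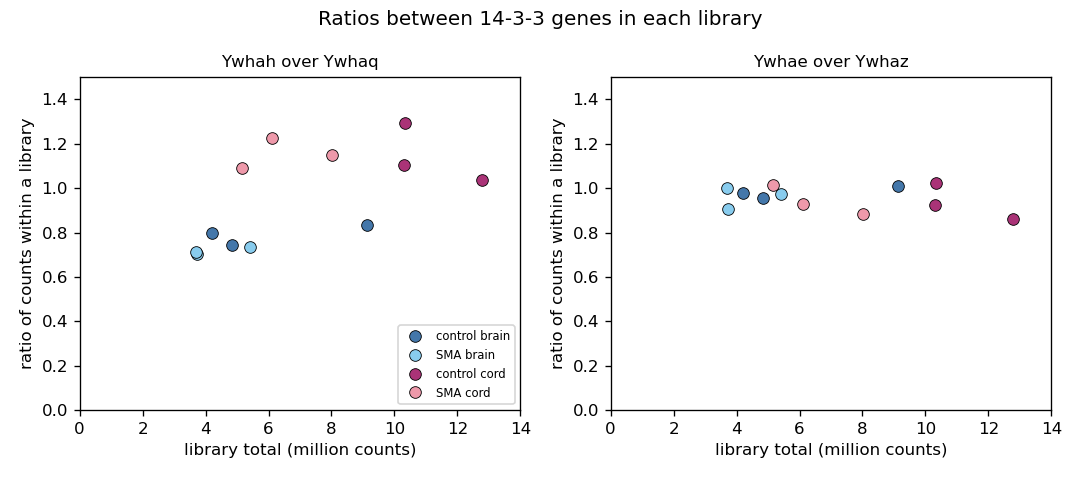
Ratio of counts within a library, on the vertical axis from 0, against the library total (3683842 to 12793955 counts), for Ywhah over Ywhaq and for Ywhae over Ywhaz. Each point is 1 of the 12 libraries, colored by group. For Ywhah over Ywhaq the brain libraries lie between 0.702 and 0.832 and the spinal cord libraries between 1.04 and 1.29, while for Ywhae over Ywhaz the tissues overlap.

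The patterns of the members over the 12 libraries fell into those of Ywhae, Ywhaz, Ywhag and Ywhaq on one side and of Ywhab and Ywhah on the other. Likeness was measured as the root mean square difference of log2 CPM after centering each gene, over 12 libraries that share their tissue and depth. It was 0.069 to 0.10 between any pair of the first 4 and 0.12 between Ywhab and Ywhah, but 0.18 to 0.32 across these sets. Among 1819 other genes with a name, Ywhae was most like Ckb, the brain creatine kinase (0.068), and Rps9 (0.069), and Ywhaz most like Hspa8, a constitutive chaperone (0.055), and Ckb (0.072). The nearest to Ywhag were Tubb6, a tubulin (0.064), and Rpl13 (0.068), and Ywhaq was most like Rpl8 (0.062). Rps9, Rpl13 and Rpl8 encode ribosomal proteins. Ywhab was nearest to Ppp2ca, a catalytic subunit of protein phosphatase 2A (0.057), and Rab5c, an endosomal GTPase (0.066). Ywhah was nearest to Atp5mpl, a small subunit of the mitochondrial ATP synthase (0.060), which was the closest of all 8489 genes compared, and Smdt1, a part of the mitochondrial calcium uniporter (0.074). Ckb was also lowest in the deepest library of each tissue, at 623 CPM in control brain 1 and 425 CPM in control spinal cord 1.

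Partners of 14-3-3 proteins were described from lists of known partners, of which only those with a name at hand could be followed. Of 52 listed partners in signaling and the cell cycle, 9 were followed, among them Akt1s1, Araf, Cdkn1b, Grb10, Hdac5, Hdac7, Tsc2 and Zfp36l1, and 0 of the 9 passed the pathway thresholds in brain or in spinal cord. Their median log2 fold change was -0.04 in brain and -0.08 in spinal cord, against 0.00 and -0.01 over all genes. Between tissues, 2 of the 9 were called as higher in brain in control embryos and 3 in SMA embryos. In each genotype 1 was called as higher in spinal cord. Of all genes 41.1% in control and 40.4% in SMA embryos were called, 21.1% and 19.3% as higher in brain. Cdkn1b, an inhibitor of cyclin-dependent kinases, was higher in brain by 1.04 in control and 1.19 in SMA embryos on the log2 scale. Grb10, an adaptor of insulin signaling, was higher there by 0.69 and 0.79. Hdac5, a deacetylase held in the cytoplasm by 14-3-3, was called as higher in brain in SMA embryos at 0.40. Araf, a Raf kinase, was higher in spinal cord, with log2 fold changes of -0.76 and -0.84. Without control spinal cord 1, the control values of Cdkn1b, Grb10 and Araf were 1.11, 0.79 and -0.84, all still called, as were 35.8% of all genes.

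Of 25 listed partners in the cytoskeleton and transport, 11 were followed. In SMA brain 1 of the 11 passed, against 3.76% of all genes. This was Tiam1, an activator of Rac, with a lower level (log2 fold change -0.33, SE 0.11, unadjusted p = 0.0114, adjusted p = 0.902 in edgeR). With the density trend removed it stood at -0.29 (unadjusted p = 0.0194 in edgeR) and no longer passed, by the size threshold alone. It stood at 93.1, 89.7 and 79.0 CPM in control brain and at 69.7, 63.8 and 73.9 CPM in SMA brain, with no overlap. In SMA spinal cord 3 of the 11 passed, against 4.19% of all genes, and without control spinal cord 1 only Nde1 did, against 2.20%. Nde1, a partner of Lis1 and dynein in dividing progenitors, was lower (log2 fold change -0.59, SE 0.16, unadjusted p = 0.00912, adjusted p = 0.684 in edgeR). It stood at 35.5, 37.7 and 27.2 CPM in control and at 19.5, 24.1 and 24.1 CPM in SMA spinal cord, with no overlap. Its log2 fold change was -0.51 with the density trend removed and -0.54 without control spinal cord 1 (SE 0.19). Tiam1 was also lower there, at -0.34 (SE 0.14, unadjusted p = 0.0457 in edgeR), but at -0.27 with the density trend removed and -0.19 without control spinal cord 1, where it stood at 116 CPM against 84.6 and 90.7 CPM in the other controls and 70.7 to 84.6 CPM in SMA spinal cord. Mapt, the gene for the microtubule protein tau, was higher, at 0.37 (SE 0.14, unadjusted p = 0.0324 in edgeR), and stood at 0.15 with the density trend removed and at 0.26 without control spinal cord 1, whose 1110 CPM was the lowest level of the tissue.

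Ndel1 itself, the phosphorylated partner of 14-3-3 epsilon, did not pass in either tissue, with log2 fold changes of -0.06 (SE 0.12) in brain and -0.10 (SE 0.075) in spinal cord. Between tissues, 2 of the 11 followed partners in the cytoskeleton and transport were called as higher in brain in control embryos and 1 in SMA embryos. In each genotype 2 were called as higher in spinal cord. Of all genes 41.1% in control and 40.4% in SMA embryos were called in either direction. Nde1 was higher in brain by 1.52 in control and 2.17 in SMA embryos on the log2 scale. Cby1, which binds beta-catenin together with 14-3-3, was called as higher in brain in control embryos at 0.38. Ndel1 (-0.26 and -0.25) and Mark3, a kinase of microtubule-binding proteins (-0.20 and -0.25), were called as higher in spinal cord in both genotypes. Without control spinal cord 1, Nde1 (1.56) and Mark3 (-0.21) were still called in control embryos, and Ndel1 (-0.25, adjusted p = 0.0603 in edgeR) and Cby1 (0.28) were not. In that fit 35.8% of all genes were called.

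Of the cell type markers, 4 of 14 could be followed for neurons, 6 of 12 for progenitors and 1 each for blood, connective tissue and liver. None of the 4 neuronal markers (Nefl, Nefm, Elavl3 and Map2) passed in brain or spinal cord. Their summed level was 3313 to 4094 CPM in control and 3612 to 4062 CPM in SMA brain, and 3229 to 4041 CPM in control and 3782 to 4389 CPM in SMA spinal cord. Without control spinal cord 1 the control sum in that tissue was 3966 to 4041 CPM. Of 6 progenitor markers 1 passed in each tissue, Nes, the gene for nestin. It was lower in SMA brain, at -0.33 (SE 0.11, adjusted p = 0.902 in edgeR). In SMA spinal cord it was lower at -0.41 (SE 0.11, adjusted p = 0.684 in edgeR), and at -0.40 without control spinal cord 1. The progenitor sum was 808 to 936 CPM in control and 857 to 917 CPM in SMA spinal cord, and 1235 to 1409 CPM in brain. Its members did not move together in spinal cord. Top2a, a topoisomerase of dividing cells, stood at 160 CPM in control spinal cord 1 and at 21.6 to 40.7 CPM in the other libraries of the tissue (log2 fold change -1.27, SE 0.66), whereas Slc1a3, a glutamate transporter of radial glia, stood at 218 to 241 CPM in control and 242 to 297 CPM in SMA spinal cord (0.24, SE 0.099). Slc4a1, of red blood cells, was higher in SMA spinal cord by 2.08 on the log2 scale (SE 0.57, adjusted p = 0.684 in edgeR). Without control spinal cord 1 it was higher by 2.33. It stood at 2.72 to 10.7 CPM against 1.04 to 1.75 CPM in controls. These levels rested on 87, 14 and 22 counts in SMA and 23, 13 and 11 counts in control spinal cord. Col1a1, a collagen gene of connective tissue, was lower in SMA brain, at -0.95 (SE 0.35, adjusted p = 0.902 in edgeR). It stood at 2.46 to 4.82 CPM against 4.62 to 9.19 CPM in controls, on 9, 26 and 9 counts in SMA brain. Apoh passed in neither tissue. Between tissues, the neuronal list was not uniform, since Nefl and Nefm were higher in spinal cord (-1.93 and -1.89 in control embryos) and Elavl3 higher in brain (0.36). The part of cell composition in the differences of the 14-3-3 genes was not tested.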

How the data were processed

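Ribosome footprints of 12 libraries (brain and spinal cord, control and SMA, 3 each, embryonic day 14.5) were analyzed from 1 deposited table of raw counts per gene. According to the study's methods and labels, the authors trimmed reads with Cutadapt 4.1, removed rRNA and tRNA reads, aligned the rest with STAR 2.5.3a to GRCm38.p6 keeping up to 5 alignments a read, and left out genes with low FPKM, so that 10481 genes remained. The counter, and whether the counts precede the removal of reads at the same position, are not given in the sources used here. Groups came from the labels.

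From the counts, differences were tested with edgeR 4.0.16 in R 4.3.3 (TMM factors, quasi-likelihood F test, Benjamini-Hochberg over all 10481 genes, no further filter). Genotypes were compared in each tissue alone, and tissues and the interaction in 1 fit over 12 libraries. To remove the density trend, a lowess curve of each library on counts per base (span 0.3) entered as an offset. On simulated counts the tests gave the right sign for at least 99.5% of 200 genes altered 2-fold. At an adjusted p under 0.05 they called 100% of them between genotypes in brain, 79.5% between genotypes in spinal cord, 99.5% between control tissues and 26% for the interaction. These counts were independent, with the same spread for every gene, only the more abundant genes altered and no trend on depth. The rates therefore need not hold for the real libraries or for smaller differences. In another simulation, 4.23% of the slope of a trend planted in spinal cord counts remained at 100 CPM or more. At 10 to 100 CPM 6.55% remained, below 10 CPM 32.4% and over all genes 16.6%. DESeq2 1.42.0 and the other alternatives are described in the closing part. Levels are CPM, or per kilobase of the deposited length. Promoters and positions came from RefSeq by symbol, and other gene names from the identifier and symbol columns of the study's supplementary table, which named 1999 genes of the table. The 6 members, all partners that pass the pathway thresholds (at most 4 a list and tissue) and the 2 named genes most like each member are named, and partners called between tissues were named after their values were seen. Some genes that these rules name are not reported here. Members and lists were chosen with earlier results of these data known. Libraries of 1 group differed by more than sampling noise.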

Additional observations from a re-analysis of the deposited data

How the results depend on the processing

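In SMA brain no member passed the pathway thresholds under any setting. In SMA spinal cord the count of 2 became 1 with library size alone (Ywhaz), 3 with DESeq2, with filterByExpr, with robust estimation and in a fit over 12 libraries (Ywhag added in each), and 0 at a log2 fold change of 0.5, with the density trend removed and, among alternatives added after the data were seen, with a trend on counts per gene removed. With log2 library total as a covariate it was 1 within spinal cord (Ywhae, lower), where 1578 of all genes passed, and 0 over 12 libraries, where 379 did. Leaving out 1 library each gave 0 (without SMA spinal cord 2, with 280 of all genes passing) to 5 (without SMA spinal cord 1, with 980). Over all genes 439 passed in the main fit, 465 with library size alone, 419 with DESeq2, 447 with filterByExpr and 464 with robust estimation. In the fit over 12 libraries 578 passed, and 103 did at a log2 fold change of 0.5. With the density trend removed 328 passed, and 416 with the trend on counts per gene removed. In control embryos, the count of 4 members called between tissues became 2 with the density trend removed and 0 with the covariate. The share of all genes called was 41.1% before and 41.7% with the density trend removed. In SMA embryos, the count of 1 became 3 with DESeq2, upper-quartile factors and the 6 libraries of that genotype, and 2 with the density trend removed and with the covariate, while leaving out 1 library each gave 1 to 4. The share of all genes called between SMA tissues was 40.4% before and 41.5% with the density trend removed. For the interaction, leaving out 1 library each gave 0 to 1. Shares of all genes for the other tissue and interaction settings are not given here. Those counts alone therefore do not tell a change in the family from a change over all genes.

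Some log2 fold changes of single members reversed, and the cause was not tested. With the density trend removed, SMA brain gave -0.012 for Ywhae and -0.0033 for Ywhah, the tissues gave -0.11 for Ywhab and -0.19 for Ywhah in control and -0.040 for Ywhab in SMA embryos, and the interaction gave -0.068 for Ywhab and -0.037 for Ywhaq. With the trend on counts per gene removed, Ywhah stood at -0.020 between control tissues and Ywhab at -0.024 in the interaction. With library size alone these were -0.0012 and -0.028. DESeq2 gave -0.0053 and upper-quartile factors -0.018 for Ywhab in the interaction.

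With log2 library total as a covariate, SMA brain gave -0.049 for Ywhae, -0.043 for Ywhaz, -0.026 for Ywhag and -0.084 for Ywhah. SMA spinal cord gave -0.36 for Ywhae, -0.070 for Ywhaz, -0.11 for Ywhab, -0.26 for Ywhag, -0.28 for Ywhah and -0.22 for Ywhaq. The control tissues gave -0.14 for Ywhab and -0.31 for Ywhah, and the SMA tissues -0.048 for Ywhab. The interaction gave -0.00051 for Ywhaz, -0.088 for Ywhab, -0.018 for Ywhag and -0.10 for Ywhaq. Over 12 libraries, SMA brain gave -0.099 for Ywhae, -0.051 for Ywhaz, -0.061 for Ywhag, -0.13 for Ywhah and -0.0076 for Ywhaq. SMA spinal cord gave -0.078 for Ywhae, -0.052 for Ywhaz, -0.033 for Ywhab, -0.079 for Ywhag, -0.055 for Ywhah and -0.11 for Ywhaq.

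Leaving out 1 library each, SMA brain ran from -0.011 to 0.23 for Ywhae, from -0.00098 to 0.26 for Ywhaz and from -0.043 to 0.13 for Ywhah, the control tissues from -0.054 to 0.15 for Ywhah, and the interaction from -0.054 to 0.070 for Ywhab and from -0.066 to 0.19 for Ywhaq. Same-numbered libraries of the 2 genotypes did not deviate together throughout (correlations of their deviations from -0.33 to 0.68). Between tissues these correlations were 0.038 to 0.15 in control and 0.097 to 0.32 in SMA embryos, and every control library, but not every SMA library, correlated best with its own number. The numbers were not taken as pairs. With the replicate number as a block, 3 members in place of 1 were called between SMA tissues (Ywhae, Ywhaz and Ywhaq), 2 passed in SMA spinal cord as before, and over all genes the count passing in spinal cord went from 439 to 744. The family share moved by less than 1 SD with TMM effective totals and without any single library. Coding length in place of the deposited length was not run, since no protein table was used here. With 3 libraries a group, the spread between libraries and not counting error limits the precision.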
